A study of Mus musculus with 8 samples.

Results

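The genes described here are named for the cytosolic factors that start, extend and end protein synthesis. These factors are the eukaryotic initiation factors eIF1 to eIF6, the elongation factors eEF1 and eEF2 and the release factors Etf1 and Gspt1. Some of the genes have other roles, among them the eIF4E inhibitors, the kinase Eef2k, Eef1e1 and the exon junction helicase Eif4a3. All were taken by gene name from a deposited table of 43346 genes. The name pattern matched 72 rows. The 4 eIF2 kinases (Eif2ak names), the Y-linked Eif2s3y, 6 rows with a pseudogene name (-ps, with or without a number) and 2 rows with fewer than 100 counts over the 8 libraries (Eif4e1b with 6 and Eif2c5 with 0) were set aside, which left 59 members. The lowest member by counts was Eif4ebp1, with 1567. Read to the letter, the name rule would also keep 3 numbered pseudogenes with 100 or more counts and give 62 members. These were Eif4a-ps4, Eif1-ps1 and Eif3s6-ps1, and none of them passed the group test (adjusted p of 0.273, 0.545 and 0.971). Of the 59 members, 5 belong to eIF1, 3 are subunits of eIF2, 5 are subunits of eIF2B, 2 are other genes with an eIF2 name, 14 are eIF3 subunits, 12 belong to eIF4, 3 are inhibitors of eIF4E (the 4E-BPs), 5 belong to eIF5 and eIF6, 6 to eEF1, 2 to eEF2 and 2 are release factors.

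Each library came from 1 mouse aged 1.5 months, with the cortex and hippocampus taken as the tissue. The GFP group (4 libraries) carried green fluorescent protein, and the GFP-GR100 group (4 libraries) carried the same protein fused to a chain of 100 glycine-arginine repeats. Such poly(GR) chains are translated from the C9orf72 repeat expansion, which causes frontotemporal dementia and amyotrophic lateral sclerosis. The construct was built in an adeno-associated virus vector plasmid, and every animal of both groups thus carried an EGFP sequence. The sources used here do not give the strain, the promoter, the route of delivery or the cells that carried the vector. In each group libraries 1 and 2 came from females and libraries 3 and 4 from males, and values below are listed in that order. In such bulk tissue, fewer cells of a type and less RNA per cell cannot be told apart. The recorded brain weight of every GFP-GR100 mouse was below that of every GFP mouse, and its part in the members' values was not tested.

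In eukaryotic initiation, eIF2 bound to GTP brings the initiator tRNA to the small ribosomal subunit, and eIF2B recharges eIF2 with GTP. Kinases that phosphorylate the alpha subunit of eIF2 turn it into an inhibitor of eIF2B, which lowers general initiation and favours a few mRNAs such as Atf4; this is the integrated stress response. The eIF3 complex holds the small subunit together with the mRNA, while eIF4E binds the cap, eIF4G is the scaffold and eIF4A is the helicase that opens the leader. The 4E-BPs compete with eIF4G for eIF4E and are switched off by mTORC1. In elongation, eEF1A delivers aminoacyl-tRNA, the eEF1B subunits recharge it, and eEF2 moves the ribosome along. Neurons switch from Eef1a1 to Eef1a2 after birth. Arginine-rich dipeptide repeat proteins are known to bind ribosomal proteins and translation factors and to reduce translation.

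Many mRNAs of the translation machinery begin with a run of pyrimidines (C or T) at the cap, known as a terminal oligopyrimidine (TOP) tract, which ties their translation to mTORC1. The 30 bases around the annotated start are therefore shown for 4 members that held a run of 10 or more and for 4 members on which later results turn, with the longest pyrimidine run in capitals. Each sequence is the sense strand, 15 bases before the RefSeq start and 15 from it, on GRCm38.p6. Eif2b5, the catalytic subunit of eIF2B, lies at chr16:20498802-20498831 on the plus strand, Eif3f at chr7:108934400-108934429 on the plus strand, Eif3l at chr15:79075208-79075237 on the plus strand and Eif2s3x at chrX:94212637-94212666 on the minus strand.
Eif2b5: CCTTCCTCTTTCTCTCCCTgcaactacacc
Eif3f: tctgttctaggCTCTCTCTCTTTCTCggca
Eif3l: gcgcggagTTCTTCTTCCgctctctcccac
Eif2s3x: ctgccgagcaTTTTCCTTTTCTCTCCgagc
Eif3c lies at chr7:126566352-126566381 on the minus strand, Eif5b at chr1:37997995-37998024 on the plus strand, Eif4a1 at chr11:69672409-69672438 on the minus strand and Eef1a2 at chr2:181157001-181157030 on the minus strand.
Eif3c: CTCacctgctcagagggactcggcagctta
Eif5b: ggcgcctgggTTCCCacctggccggcggct
Eif4a1: acaaagtaacgTCacgtcgagttgcagagc
Eef1a2: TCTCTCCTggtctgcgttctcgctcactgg
The longest runs in these windows were 19 bases in Eif2b5, 16 in Eif2s3x, 15 in Eif3f and 10 in Eif3l, against 8 in Eef1a2, 5 in Eif5b, 3 in Eif3c and 2 in Eif4a1. The RefSeq start and the deposited gene start differed by 211 bases for Eif2s3x and by 45 for Eif3c, and by 2 or fewer for the others shown. A RefSeq promoter was found for 45 of the 59 members. A run of 10 or more pyrimidines on the sense strand, within 20 bases of any listed start on either side, was found in 9 of the 45 (20.0%), against 9.52% of the 12990 tested genes with a promoter. The 9 were Eif2b5, Eif3f, Eif3l, Eif2s3x, Eef1a1, Eef1a2, Eif3m, Eif4e and Eif4enif1. In Eef1a2 the run begins upstream of the bases shown above, which hold only its last part. The 9 members with such a run had a median log2 fold change of -0.12 in GFP-GR100 over GFP, and the others of the 45 a median of -0.13.

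Library totals ran from 65880460 to 89113010 counts, and the members together took 0.864% to 1.06% of counts in GFP libraries and 0.906% to 0.979% in GFP-GR100 libraries. Loci that carry ribosomal RNA sequence took 11.4%, 6.74%, 3.80% and 3.54% of counts in the GFP libraries and 3.20%, 2.76%, 8.77% and 9.83% in the GFP-GR100 libraries. This share was thus high in GFP females and GFP-GR100 males and moved with the product of sex and group. Of the marker lists of cortical and hippocampal cells, no marker was at 0 in all libraries. The 6 microglial markers summed to 322 to 433 CPM (counts relative to library size) in GFP and 539 to 592 CPM in GFP-GR100, and 4 of the 6 rose. The 6 choroid plexus markers summed to 127 to 362 CPM and 31.9 to 87.8 CPM, with Folr1 past the test as lower (DESeq2 called all 6). The 6 excitatory neuron markers summed to 4650 to 5180 CPM and 3740 to 5600 CPM, with none past the test. Of the 6 oligodendrocyte markers none passed with edgeR, but all 6 lay below 0 (median log2 fold change -0.28), 3 had an unadjusted p under 0.05 and DESeq2 called 2 of them lower. Of the inhibitory neuron, astrocyte, endothelium and red blood cell lists 0 markers passed with edgeR (DESeq2 called 1 endothelial marker higher), and of the 4 oligodendrocyte precursor markers 1 did, as lower. The part of these differences in the members' values was not tested.

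Per length of transcript, the elongation factors Eef1a1, Eef1a2 and Eef2 were the most abundant members. Eef1a1 stood at 651 ± 115 RPKM (reads relative to gene length and library size; SD, n = 4) in GFP and 681 ± 39.2 RPKM (SD, n = 4) in GFP-GR100. Eef1a2, its neuronal and muscle counterpart, stood at 417 ± 61.7 and 368 ± 52.4 RPKM, and the translocase Eef2 at 328 ± 37.6 and 330 ± 35.1 RPKM. In GFP libraries the ranges of 1 SD around Eef1a1 and Eef1a2 did not meet, while those of Eef1a2 and Eef2 did. The highest initiation factors were Eif4h, which stimulates the helicase eIF4A, at 164 RPKM over all 8 libraries, the start codon factor Eif1 at 126 RPKM, the helicase Eif4a2 at 106 RPKM and the hypusine-bearing Eif5a at 101 RPKM. Within eIF3, mean levels ran from 1.95 RPKM for Eif3j2 and 4.86 RPKM for Eif3j1 to 84.6 RPKM for Eif3h and 92.9 RPKM for Eif3k. The eIF2B subunits ran from 1.90 RPKM for Eif2b3, the lowest of all members, to 17.5 RPKM for Eif2b5. The cap-binding protein Eif4e stood at 32.0 RPKM, above its relatives Eif4e2 at 7.34 RPKM and Eif4e3 at 5.31 RPKM, and above the 4E-BPs at 8.46 RPKM for Eif4ebp2, 5.28 RPKM for Eif4ebp3 and 2.55 RPKM for Eif4ebp1.

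The first comparison asked which factors differ in mRNA level between GFP-GR100 and GFP. None of the 59 members passed the test, and most had slightly lower values in GFP-GR100. With edgeR's quasi-likelihood test and sex in the model, 0 members had an adjusted p under 0.05, where 2.52% of all 20987 tested genes did (2.19% higher, 0.324% lower). DESeq2 and limma-voom also called 0 members. All 59 members passed the filter on low counts. The smallest adjusted p was 0.156, for Eif3c. At an unadjusted p under 0.05, 7 members (11.9%) were lower and 0 higher, where 7.37% of all genes were lower and 8.23% higher. Among the 14442 genes at or above the lowest member's mean CPM, 9.04% were lower and 6.94% higher. The 7 were Eif2s1, Eif3c, Eif4a1, Eif4g2, Eif4enif1, Gspt1 and Etf1. That count of lower members moved with the fit. It was 1 without GFP 4, 1 without GFP-GR100 2 and 2 with no sex in the model. With the share of counts at ribosomal RNA loci in the model it was 15. The estimate lay below 0 for 48 members (81.4%), against 54.6% of all tested genes and 61.6% of those at or above the lowest member's mean CPM. It ran from -0.32 (Eif3c) to 0.19 (Eif4ebp1) on the log2 scale, with a median of -0.13 against -0.02 over all tested genes and -0.05 over the 14442 genes at or above that CPM. SEs ran from 0.07 (Eif4enif1) to 0.17 (Eif4ebp1). All 4 GFP-GR100 libraries lay below all 4 GFP libraries for 2 members, Eif3c and Eif5b (3.39%), where 3.03% of all genes did so, and above them for 0 members, where 5.03% did. The share of members lying wholly lower was thus close to that of all genes.

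**Figure D1:**
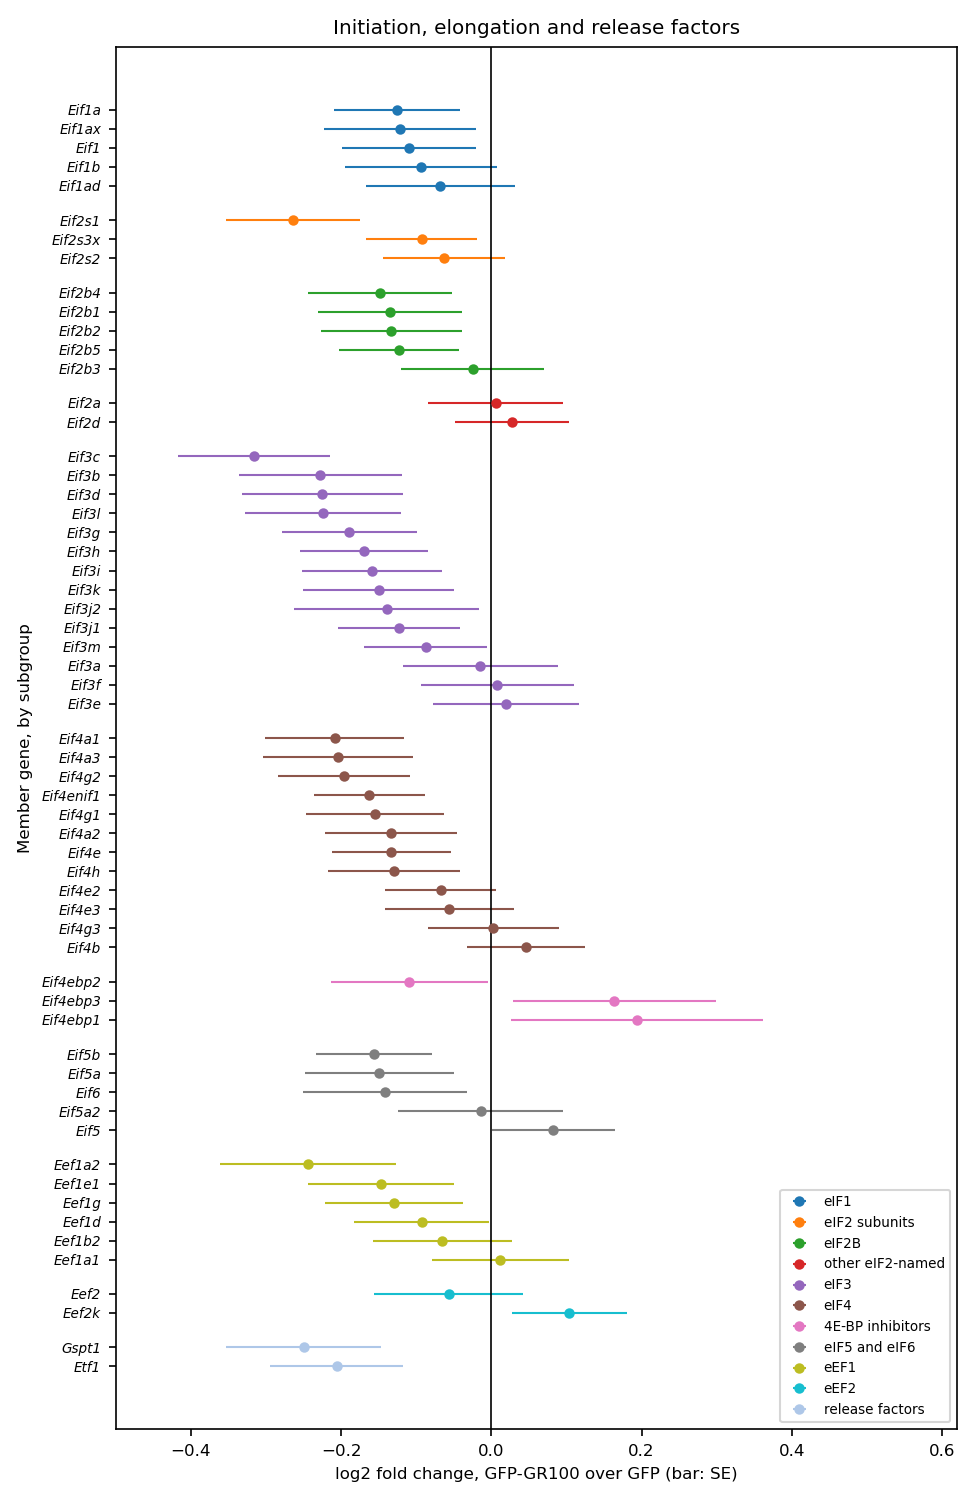
Difference between the groups (log2, GFP-GR100 over GFP) for each of the 59 members (points; bars are the SE of the fit), ordered by subgroup. Estimates run from -0.32 for Eif3c to 0.19 for Eif4ebp1, and 48 of 59 lie below 0.

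Of the eIF2 genes, the alpha subunit gave the lowest estimate. Eif2s1, the subunit that the stress kinases phosphorylate, read 42.6, 37.2, 47.2 and 48.0 CPM in GFP and 36.0, 31.2, 42.6 and 35.7 CPM in GFP-GR100. Each GFP-GR100 library lay below both GFP libraries of its own sex, and the groups overlapped, with GFP-GR100 3 above the GFP female GFP 2. The log2 fold change was -0.26 (SE 0.09, adjusted p = 0.178). The beta subunit Eif2s2 gave -0.06 (SE 0.08) and the gamma subunit Eif2s3x -0.09 (SE 0.07). The 5 subunits of eIF2B, the exchange factor, gave -0.15 (Eif2b4), -0.14 (Eif2b1), -0.13 (Eif2b2), -0.12 (Eif2b5) and -0.03 (Eif2b3), with adjusted p from 0.468 to 0.916. Eif2a and Eif2d, which can deliver initiator tRNA apart from eIF2, gave 0.01 and 0.03. Over the 10 genes with an eIF2 name the median was -0.11, and 8 of 10 estimates lay below 0.

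Of the eIF3 subunits, Eif3c, part of the core that contacts the small ribosomal subunit, gave the lowest estimate of all members. It read 177, 166, 163 and 189 CPM in GFP and 162, 149, 135 and 115 CPM in GFP-GR100. The groups did not overlap, though the highest GFP-GR100 library (162 CPM) and the lowest GFP library (163 CPM) were nearly equal. The log2 fold change was -0.32 (SE 0.10, adjusted p = 0.156), and leaving out 1 library at a time moved it between -0.37 and -0.21. Eif3b, the scaffold subunit with an RNA recognition motif, gave -0.23 (SE 0.11), Eif3d, which can itself bind a cap, -0.22 (SE 0.11), and Eif3l -0.22 (SE 0.10), with adjusted p from 0.321 to 0.336. The core subunits did not share 1 value: Eif3a, the largest subunit, gave -0.01 (SE 0.10), Eif3e 0.02 (SE 0.10) and Eif3f 0.01 (SE 0.10). Eif3a read 185, 169, 115 and 158 CPM in GFP and 173, 163, 143 and 138 CPM in GFP-GR100, with GFP 3 the lowest of the 8 libraries. Over the 14 subunits the median was -0.15, with 12 of 14 below 0.

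Of the eIF4 genes, Eif4a1, Eif4g2 and Eif4enif1 had unadjusted p under 0.05 and lower values in GFP-GR100, and none passed after adjustment. Eif4a1, the helicase isoform of growing cells, read 148, 143, 183 and 176 CPM in GFP and 145, 127, 158 and 131 CPM in GFP-GR100, with a log2 fold change of -0.21 (SE 0.09, adjusted p = 0.302). The groups overlapped through GFP-GR100 1 and 3. Eif4g2, an eIF4G relative that lacks the eIF4E-binding part, read 717, 650, 590 and 668 CPM in GFP and 614, 551, 567 and 558 CPM in GFP-GR100, with -0.20 (SE 0.09, adjusted p = 0.306). Here 3 of 4 GFP-GR100 libraries lay below every GFP library. Eif4enif1, the eIF4E transporter that carries the cap-binding protein to P-bodies, read 50.3, 52.1, 46.7 and 49.8 CPM in GFP and 47.1, 46.1, 43.3 and 41.5 CPM in GFP-GR100, with -0.16 (SE 0.07, adjusted p = 0.311). Only GFP-GR100 1 reached the lowest GFP library, GFP 3. Eif4e gave -0.13 (SE 0.08), the scaffolds Eif4g1 and Eif4g3 -0.16 (SE 0.09) and 0.00 (SE 0.09), and Eif4b, a cofactor of the helicase, 0.05 (SE 0.08).

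The 3 inhibitors of eIF4E differed among themselves in sign. Eif4ebp1 read 1.83, 2.11, 3.13 and 2.28 CPM in GFP and 2.30, 2.73, 3.01 and 2.57 CPM in GFP-GR100, a log2 fold change of 0.19 (SE 0.17, adjusted p = 0.586). Eif4ebp3 gave 0.16 (SE 0.14), and Eif4ebp2, the main 4E-BP of neurons, gave -0.11 (SE 0.10). The groups overlapped for all of them, and GFP 3 was at once the highest of the 8 libraries for Eif4ebp1 and the lowest for Eif4ebp2.

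Among the other initiation factors, Eif5b, the GTPase that joins the ribosomal subunits, read 103, 95.3, 90.8 and 98.9 CPM in GFP and 89.4, 86.5, 88.7 and 83.6 CPM in GFP-GR100. The groups did not overlap, with a gap between GFP 3 at 90.8 CPM and GFP-GR100 1 at 89.4 CPM. The log2 fold change was -0.16 (SE 0.08, adjusted p = 0.348). Eif5, the GTPase activator of eIF2, gave 0.08 (SE 0.08), Eif5a -0.15 (SE 0.10), its paralog Eif5a2 -0.01 (SE 0.11) and Eif6, which keeps free large subunits apart, -0.14 (SE 0.11). The 5 eIF1 genes gave -0.13 to -0.07.

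Of the elongation factors, Eef1a2 gave the lowest estimate and had the widest split between sexes. It read 780, 824, 952 and 991 CPM in GFP and 848, 813, 698 and 640 CPM in GFP-GR100, a log2 fold change of -0.24 (SE 0.12, adjusted p = 0.340). The GFP males were the highest libraries and the GFP-GR100 males the lowest, with all 4 females between them. Eef1a1 read 1458, 1497, 1974 and 1690 CPM in GFP and 1591, 1536, 1817 and 1702 CPM in GFP-GR100, with 0.01 (SE 0.09), and its groups overlapped. The exchange subunits Eef1b2, Eef1d and Eef1g gave -0.06, -0.09 and -0.13, and Eef1e1, a scaffold protein of the tRNA synthetase complex, gave -0.15. Eef2 gave -0.06 (SE 0.10), and Eef2k, the kinase that inhibits eEF2, gave 0.10 (SE 0.08). The median over the 8 eEF genes was -0.08.

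Both release factors were among the 7 members with an unadjusted p under 0.05. Gspt1, the GTPase eRF3, read 91.5, 70.2, 54.4 and 69.2 CPM in GFP and 68.8, 63.8, 53.5 and 53.0 CPM in GFP-GR100, with a log2 fold change of -0.25 (SE 0.10, adjusted p = 0.272). Etf1, which recognises the stop codon as eRF1, read 103, 90.8, 89.2 and 97.7 CPM in GFP and 92.5, 78.0, 83.9 and 76.0 CPM in GFP-GR100, with -0.21 (SE 0.09, adjusted p = 0.287). For Etf1, 3 of 4 GFP-GR100 libraries lay below every GFP library. For Gspt1 the GFP libraries alone spanned 54.4 to 91.5 CPM, and only GFP-GR100 3 and 4 lay below them.

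**Figure D2:**
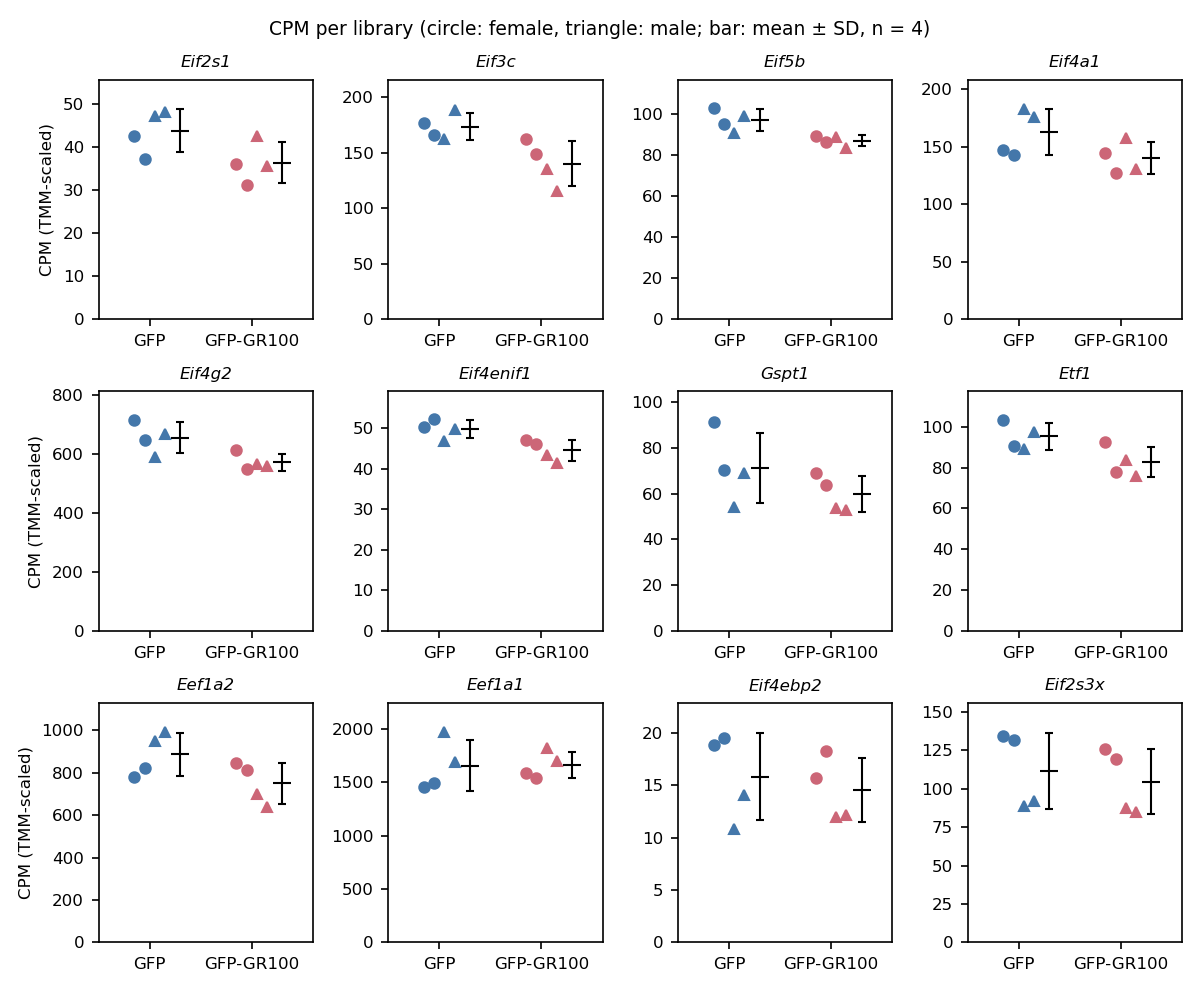
CPM in each library (y axis from 0) of 12 members, by group, with females as circles, males as triangles and mean ± SD (n = 4) in black. Only Eif3c and Eif5b have groups that do not overlap, and Eif2s3x and Eif4ebp2 separate by sex rather than by group.

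The next comparison set the eIF2, eIF3, eIF4 and eEF groups side by side, as medians with no test. In GFP-GR100 over GFP the medians were -0.11 for eIF2 (10 genes), -0.15 for eIF3 (14 genes), -0.13 for eIF4 with the 4E-BPs (15 genes) and -0.08 for eEF (8 genes), so that all 4 lay below 0. Per library, as the median log2 difference from the GFP mean, the eIF3 genes lay at -0.16, -0.12, 0.16 and 0.09 in GFP and -0.11, -0.22, -0.04 and -0.16 in GFP-GR100. The eEF genes lay at -0.21, -0.11, 0.25 and 0.08 in GFP and -0.06, -0.13, -0.04 and -0.03 in GFP-GR100. For both groups of genes the GFP males lay above every GFP-GR100 library, while the GFP females lay within the GFP-GR100 range or below it. The eIF4 genes showed no such split, with 0.04, -0.01, 0.00 and 0.00 in GFP and -0.05, -0.11, -0.06 and -0.20 in GFP-GR100, and their groups did not overlap; nor did the medians of all tested genes, at 0.00 to 0.02 in GFP and -0.02 to 0.00 in GFP-GR100. The eIF2 genes lay at -0.07, -0.08, 0.08 and 0.08 in GFP and -0.09, -0.19, -0.03 and -0.13 in GFP-GR100. Here too the GFP males lay above every GFP-GR100 library and the GFP females within the GFP-GR100 range. The median over all members did the same, at -0.10, -0.08, 0.08 and 0.05 in GFP and -0.08, -0.20, -0.05 and -0.16 in GFP-GR100.

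**Figure D3:**
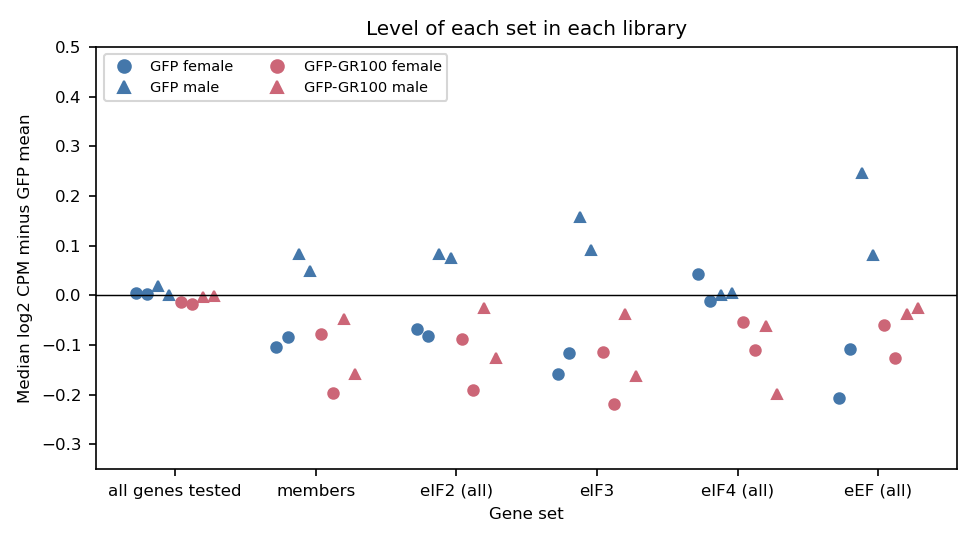
Median over each gene set of log2 CPM minus the gene's mean log2 CPM in GFP, 1 point per library (circles female, triangles male; blue GFP, red GFP-GR100). The median of all tested genes stays near 0 in every library. The medians of the members, eIF2, eIF3 and eEF are highest in the GFP males.

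These medians moved with single libraries. GFP 3 was the highest of the 4 GFP libraries for 29 of 59 members (49.2%), against 35% of all tested genes, and GFP-GR100 2 was the lowest of the 4 GFP-GR100 libraries for 29 members (49.2%), against 26.2%. Without GFP 3 alone, the median log2 fold change moved from -0.126 to -0.0666 over the members, from -0.108 to -0.0633 for eIF2, from -0.155 to -0.0953 for eIF3 and from -0.0789 to -0.0075 for eEF. The members' median was -0.0785 without GFP-GR100 2. Dropping GFP 4, GFP-GR100 2 or GFP-GR100 4 gave eIF2 medians of -0.0709, -0.0664 and -0.0676. The eIF4 median of -0.129 was -0.0500 without GFP 4 and -0.0761 without GFP-GR100 2, and the eEF median was -0.144 without GFP 1. All of these stayed below 0. Without GFP 3 and GFP-GR100 4 together, the median log2 fold change was -0.05 over the members, -0.02 for eIF2, -0.06 for eIF3, -0.06 for eIF4 and 0.00 for eEF, and 0 members passed the test.

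Many factors have a close relative that does the same step, and the ratio of the pair within a library does not depend on how libraries are scaled. For 11 such pairs the ratio of RPKM was compared between groups by exact permutation (two-sided, all 70 ways to split 8 animals into groups of 4), whose smallest possible p is 0.0286. No pair passed, and the groups overlapped for all 11. The smallest exact p was 0.0571 (0.629 adjusted over the 11 pairs), for Eif4g3 over Eif4g1. That ratio was 0.598, 0.625, 0.571 and 0.563 in GFP and 0.619, 0.668, 0.698 and 0.646 in GFP-GR100, so that only GFP-GR100 1 lay within the GFP range. The ratio of Eef1a2 to Eef1a1 was 0.640, 0.659, 0.577 and 0.701 in GFP and 0.637, 0.634, 0.459 and 0.450 in GFP-GR100 (exact permutation p = 0.143, 0.786 adjusted). It was low in the GFP-GR100 males alone, while the GFP-GR100 females matched the GFP females to within 0.03 on the log2 scale. Eif4a2 exceeded Eif4a1 by 2.67 to 3.44 times in every library, and Eif5a2 stood at 0.0633 to 0.129 of Eif5a.

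**Figure D4:**
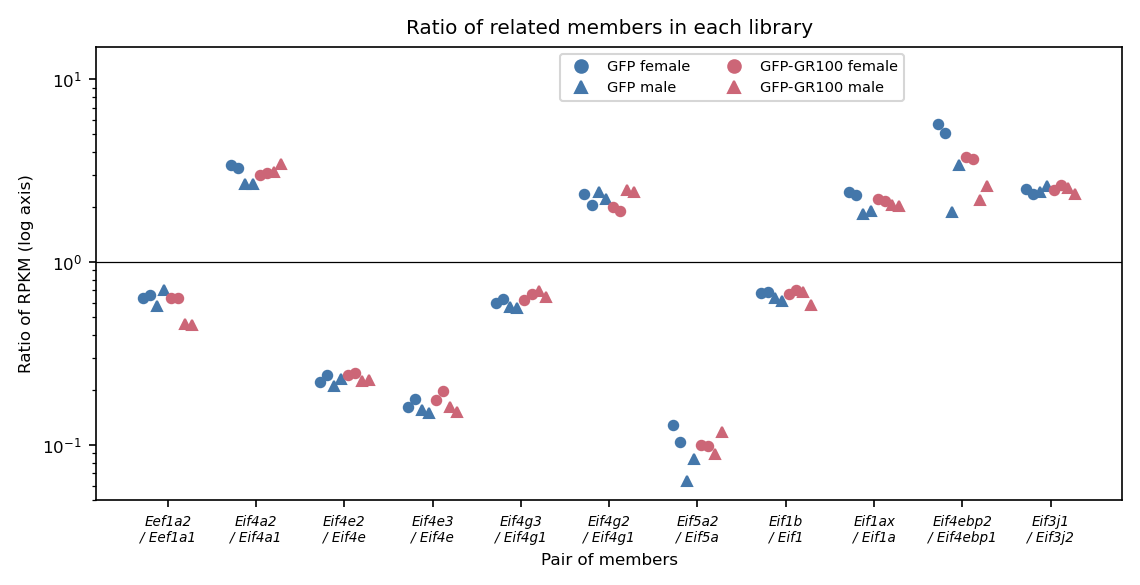
Ratio of RPKM for 11 pairs of related members in each library (log axis; circles female, triangles male; blue GFP, red GFP-GR100). Groups overlap for every pair, and the 2 lowest Eef1a2 to Eef1a1 ratios, 0.459 and 0.450, are the GFP-GR100 males.

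Females and males were compared in the same fit, over both groups. In females 2 members (Eif2s3x and Eif4ebp2) were higher and 0 lower, where 4.18% of all genes passed (2.34% higher, 1.84% lower). With unadjusted p under 0.05, 7 members were higher in females and 15 lower, where 12.9% and 12.3% of all genes were. Eif2s3x, the X-linked gamma subunit of eIF2, which has a Y-linked copy, read 135, 132, 126 and 120 CPM in the females and 88.9, 91.9, 87.7 and 85.0 CPM in the males. The sexes did not overlap, with a log2 difference of 0.53 (SE 0.07, adjusted p = 0.0144), and leaving out 1 library at a time kept the call in 5 of 8 fits, with adjusted p up to 0.0744. The Y-linked Eif2s3y read 29.4, 28.5, 41.6 and 39.6 CPM in the males and at most 0.115 CPM in the females. The sum of both copies was 135, 132, 126 and 120 CPM in females and 118, 120, 129 and 125 CPM in males, so that the sexes overlapped. The 2 copies are close in sequence, so some reads may be assigned to either. Eif4ebp2 read 18.9, 19.5, 15.7 and 18.3 CPM in females and 10.8, 14.1, 12 and 12.2 CPM in males, a log2 difference of 0.56 (SE 0.10, adjusted p = 0.0423). That call was kept in 2 of 8 fits without 1 library. The other X-linked member, Eif1ax, gave 0.13 (SE 0.10). DESeq2 called 14 members for sex, 7 in each direction, where it called 12.6% of all genes. With the share of counts at ribosomal RNA loci in the model, 17 members were called. The percentage of all genes called was not taken for that fit, so the 17 are not read as a result about the members.

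The last comparison asked whether the difference between GFP-GR100 and GFP was the same in females and males, with 2 against 2 libraries in each. No member passed the test of that difference, where 0.0524% of all genes did. At an unadjusted p under 0.05 the log2 fold change in females minus that in males was positive for 8 members and negative for 0, where 7.06% and 9.36% of all genes were. The 8 were Eef1a2, Eif3b, Eif3d, Eif3l, Eif4a3, Eif6, Eif2b4 and Eef2. Eef1a2 had the largest such difference, 0.59 (SE 0.15, adjusted p = 0.115). It was the 1 member called by DESeq2, and it passed in 1 of 8 fits without 1 library, that without GFP-GR100 3 (adjusted p = 0.0367). With the share of counts at ribosomal RNA loci in the model, the difference for Eef1a2 was 0.34 and did not pass. The members with an unadjusted p under 0.05 went from 8 to 0. The share itself moved with the product of sex and group, so this fit cannot tell the share and the product apart for any gene. The 14 eIF3 genes had a median log2 fold change of -0.04 in females and -0.28 in males, the 8 eEF genes 0.05 and -0.23, the 10 eIF2 genes -0.08 and -0.13, and the 15 eIF4 genes -0.06 and -0.06.

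Within the males, 7 members (11.9%) fell and 0 rose, where 3.78% of all genes fell and 5.56% rose. At an unadjusted p under 0.05, 20 members were lower and 0 higher in males, where 12.5% and 14.5% of all genes were. Eef1a2 fell by 0.54 on the log2 scale (SE 0.10, adjusted p = 0.0104), from 952 and 991 CPM to 698 and 640 CPM. Of eIF3, Eif3b fell by 0.49 (adjusted p = 0.0168), Eif3c by 0.49 (adjusted p = 0.0257), Eif3d by 0.47 (adjusted p = 0.0212) and Eif3l by 0.47 (adjusted p = 0.0167). Eif3b read 106 and 112 CPM in the GFP males and 79.3 and 76.3 CPM in the GFP-GR100 males, and Eif3l 79.2 and 74.4 CPM and 57.8 and 53.2 CPM. Eif4a3, the helicase of the exon junction complex, fell by 0.42 (adjusted p = 0.0285), and Eif6 fell by 0.40 (adjusted p = 0.0432). For these 7 the GFP-GR100 males did not overlap the GFP males. Over all members this held for 33 of 59 as lower (55.9%) and 2 as higher (3.39%), where 26.3% and 26.7% of all genes did so. The estimate in males was below 0 for 47 members, where 49.7% of all genes lay below 0. Of the 14442 genes at or above the lowest member's mean CPM, 8277 lay below 0 in males. Of these 14442, 741 passed as lower in males and 738 as higher. Their median in males was -0.05, against -0.16 over the members and 0.00 over all tested genes. Some cell type markers also lay lower in the males: all 6 excitatory neuron markers lay below 0 (median -0.29, against 0.14 in females), as did all 6 oligodendrocyte markers (median -0.27, against -0.29 in females), with none of either list past the test in males. Their part in the members' values was not tested.

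These calls in males depended on single libraries. Without GFP-GR100 4, 0 members were called in males; without GFP 3, GFP-GR100 1 or GFP-GR100 2, 4 were called in each fit; and without GFP-GR100 3, 10 were called. Eef1a2 and Eif3b were each kept in 7 of 8 such fits, Eif3l in 6, Eif3d in 5, Eif3c and Eif4a3 in 4 and Eif6 in 1. With the share of counts at ribosomal RNA loci in the model 0 were called (adjusted p from 0.869 to 0.906). The estimates were then -0.54 for Eif3c, -0.44 for Eif3b and -0.42 for Eef1a2 and Eif4a3. Those of Eif3d and Eif3l were -0.35, and that of Eif6 was -0.23. That share was 3.80% and 3.54% in the GFP males and 8.77% and 9.83% in the GFP-GR100 males, so the share and the group cannot be told apart within males.

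In the females 0 members were called, where 0.881% of all genes were. At an unadjusted p under 0.05, 1 member was lower (Eif4a2) and 0 higher, where 4.3% and 5.11% of all genes were. Eif4a2, the helicase isoform of neurons, read 614 and 576 CPM in the GFP females and 533 and 481 CPM in the GFP-GR100 females, a log2 fold change of -0.23. The estimate was below 0 for 37 members, where 57.1% of all genes lay below 0. The GFP-GR100 females lay below both GFP females for 20 members (33.9%) and above both for 6 (10.2%), where 28.5% and 20.0% of all genes did so. Eef1a2 read 780 and 824 CPM in the GFP females and 848 and 813 CPM in the GFP-GR100 females, which overlapped. In all, 30 of 59 members were below 0 in both sexes. The share over all genes was not taken for this count, so it is not read as a shared direction.

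**Figure D5:**
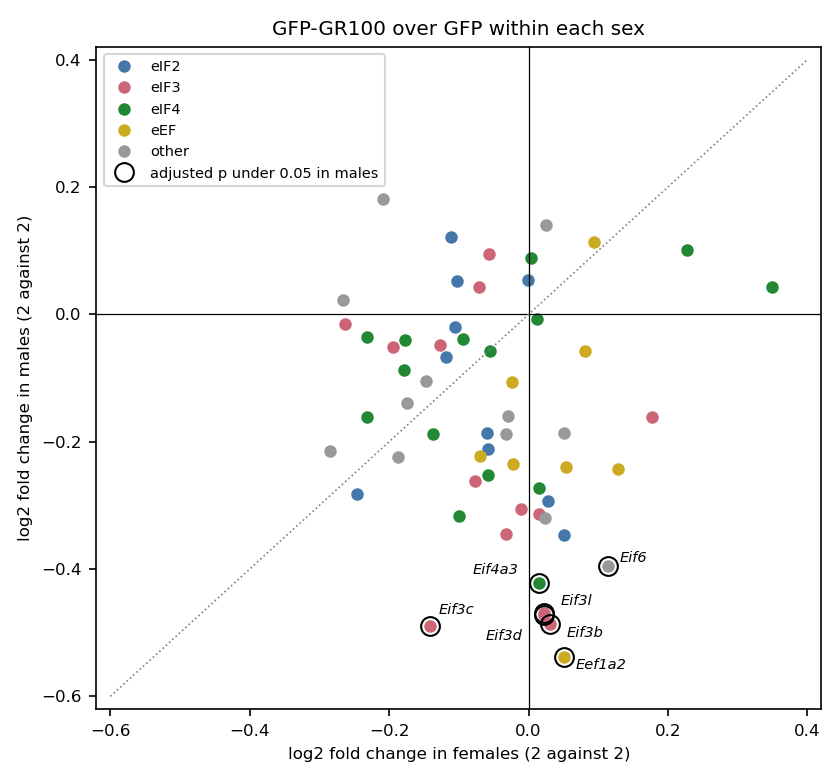
Difference between the groups (log2, GFP-GR100 over GFP) in females (x) and in males (y), 2 against 2 libraries each, 1 point per member, with rings on the 7 members past an adjusted p of 0.05 in males and a dotted line where both are equal. The ringed members lie between -0.40 and -0.54 in males and, apart from Eif3c, at or above 0 in females.

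Around eIF2, the kinase Eif2ak2 and the stress response target Atf3 passed the group test, both as higher in GFP-GR100. Of the 4 eIF2 kinases 1 rose, Eif2ak2 (PKR), which senses double-stranded RNA and is itself an interferon-induced gene. It read 8.44, 6.13, 4.0 and 5.87 CPM in GFP and 22.2, 26.5, 24.2 and 24.2 CPM in GFP-GR100, a log2 fold change of 2.02 (SE 0.17, adjusted p = 7.96e-05), and the call was kept in 8 of 8 fits without 1 library. All GFP-GR100 libraries lay above all GFP libraries. The haem-regulated kinase Eif2ak1 lay lower in all 4 GFP-GR100 libraries (91.6 ± 2.84 against 78.0 ± 5.55 CPM; SD, n = 4) without passing the test (adjusted p = 0.197).

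Of 12 targets of the integrated stress response 1 rose, the transcription factor Atf3. It read 1.15, 1.65, 1.61 and 0.744 CPM in GFP and 3.21, 2.79, 3.09 and 2.94 CPM in GFP-GR100, a log2 fold change of 1.22 (SE 0.23, adjusted p = 0.0105). The median over the 12 was -0.15, and 9 estimates lay below 0. Atf4 stood at 130 ± 12.3 CPM in GFP and 115 ± 9.40 CPM in GFP-GR100 (SD, n = 4; adjusted p = 0.328), Ddit3 at 25.2 ± 5.2 and 25.5 ± 2.18 CPM (adjusted p = 0.901), and Asns, asparagine synthetase, at 102 ± 5.90 and 83.5 ± 8.65 CPM (adjusted p = 0.166). Neither of the eIF2 phosphatase subunits Ppp1r15a and Ppp1r15b passed with edgeR, DESeq2 or limma-voom, and neither had an unadjusted p under 0.05.

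Of 14 genes of mTORC1 and MNK signalling 0 passed, and the smallest p was that of the eIF4E kinase Mknk1, at 24.4 ± 1.38 CPM in GFP and 28.4 ± 1.11 CPM in GFP-GR100 (SD, n = 4; adjusted p = 0.213). Of 5 poly(A)-binding proteins and partners 0 passed. Pabpc1, which bridges the poly(A) tail to eIF4G, lay higher in all 4 GFP-GR100 libraries (139 ± 2.40 against 154 ± 4.30 CPM; SD, n = 4), with a log2 fold change of 0.15 (adjusted p = 0.348). Of 15 other cytosolic factors 0 passed, with the smallest p for the scanning helicase Dhx29 (log2 fold change -0.34, adjusted p = 0.147). Of 9 enzymes that make the hypusine of eIF5A and the diphthamide of eEF2 0 passed, with the smallest p for Dph3 (-0.20, adjusted p = 0.286). At an unadjusted p under 0.05 these 4 lists held 1, 0, 3 and 1 genes, and DESeq2 and limma-voom also called 0 in each.

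The factors whose mRNAs are known to carry a TOP tract made a list of 11 members, among them Eef1a1, Eef2, Eif4b and Eif3f. Of this list, only Eef1a1, Eef1a2 and Eif3f were among the 9 members with a pyrimidine run in the start search. Eef1b2, Eef2, Eif3a and Eif4b were searched and were not among the 9. Eef1d, Eef1g, Eif3e and Eif3h had no RefSeq promoter and were not searched. The 11 listed members had a median log2 fold change of -0.06, against -0.13 for the other 48 members. Of the 11, 0 passed the test or had an unadjusted p under 0.05. In females over males the TOP list had a median of -0.24, with 7 of 11 below 0, and the other members -0.09. On 300 bases of promoter, from 250 before to 50 after the start, the CARE motif TGATGCAA, searched on both strands, was found in 0 of 45 members and 0.731% of the tested genes with a promoter.

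Some members share reads or space with other genes. By annotation, 14 members overlap another protein-coding gene, for example Eif4enif1 with Drg1 and Eif5b with Rev1 on the opposite strand, and Eif4ebp3 and Eif4e3 with an overlapping gene model on the same strand. Whether counting used strand is not stated in the sources used here, so reads of such pairs cannot be told apart. Eif3j1 and Eif3j2, Eif1a and Eif1ax, and Eif2s3x and Eif2s3y are near copies, and Eif4a1 has the processed copy Eif4a-ps4, which read 22.5 to 32.9 CPM, so that these values are uncertain to the extent that reads were split.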

How the data were processed

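Libraries of total RNA from 8 mice were sequenced from both ends with a stranded kit, per the labels' protocols. The deposited counts are whole numbers per gene. The same deposited table holds RPKM values, which the authors scaled to the sum of the gene counts. TopHat2 version 2.1.0, CASAVA, DESeq2, R version 3.4.1 and the build mm10 are named in the submitters' processing notes. Sources used here do not name the gene counter, its annotation or whether it used strand. Replicates are separate animals, and their numbers follow accession order.

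The counts were fitted with edgeR (version 4.0.16; limma version 3.58.1; R version 4.3.3) over all 20987 genes that filterByExpr on group kept (minimum count 10, minimum total 15), scaled by TMM. The robust quasi-likelihood test was used, with sex and group in the model. Benjamini-Hochberg adjustment ran over all genes, with a threshold of 0.05. Fold changes (log2) are GFP-GR100 over GFP, sex effects are females over males, and each SE is the fold change divided by the root of its F statistic. Effects within a sex come from the fit that also holds the sex-by-group product; there the 2 libraries per cell share 1 estimate of the spread. Tests within a sex were added after seeing the data. CPM values are TMM-scaled. The script was tested on simulated data. Alternatives were median-of-ratios scaling, other filters, limma-trend on RPKM with 0.1 or 1 added, limma-voom, DESeq2 (version 1.42.0), other covariates and leaving out libraries.

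The members and lists were chosen with earlier results of these data known. Named members are those called, the smallest p and the highest and lowest RPKM of each subgroup (first those whose groups did not overlap), the paralog pairs and Eif2s3x, 38 in all. The other members that are named, among them Eif3b, Eif3d, Eif3l, Eif4a3, Eif4enif1 and Eif6, were named after their values were seen. Of the pathway lists, called genes are named, or else the smallest p; Atf4, Ddit3, Asns, Eif2ak1 and Pabpc1 were added after their values were seen. The list of mitochondrial factors is not reported here. Gene overlaps are from GENCODE release M21, in which all 59 members were found by identifier. Start windows and promoters are from RefSeq on GRCm38.p6.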

Additional observations from a re-analysis of the deposited data

How the results depend on the processing

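No paired analysis was possible because replicate numbers follow accession order and link no animals across groups. No member was called for GFP-GR100 against GFP in any of the 18 alternatives, with the smallest adjusted p between 0.0557 (share of ribosomal RNA loci in the model) and 0.488 (without GFP 4). Over all genes the count of 528 became 1529 with no filter, 924 with DESeq2, 882 with the share of ribosomal RNA loci in the model, 323 without GFP-GR100 2 and 329 without GFP-GR100 3. The members' median of -0.126 ran from -0.134 to -0.0455. The eIF4 median of -0.129 moved to -0.0629 and -0.0626 with limma-trend on RPKM plus 0.1 and plus 1, to -0.0569 without GFP 3 and GFP-GR100 4, and to between -0.134 and -0.0500 when 1 library was left out. The eIF2 median of -0.108 became -0.0203 without GFP 3 and GFP-GR100 4, where the eEF median of -0.0789 became 0.0043. Calls for sex (2 members) were 14 with DESeq2, 17 with the ribosomal share in the model and 0 to 9 without 1 library. For the last 2 settings the percentage of all genes called for sex was not taken. Calls for the difference between sexes (0) were 1 with DESeq2 and 0 to 1 without 1 library. Calls in males (7) were 0 with the ribosomal share in the model and 0 to 10 without 1 library. The cause was not tested.

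Estimates that changed sign were small and uncalled. With limma-trend on RPKM plus 0.1 they were 0.00021 for Eif2s2, 0.0525 for Eif5a2, 0.0372 for Eif2b3, 0.0105 for Eif4e3 and 0.0103 for Eef2, and with RPKM plus 1 they were 0.00025, 0.0479, 0.0261, 0.0091 and 0.0103. Unfiltered, Eif5a2 gave 0.00017, and at a mean of 1 CPM or more Eif5a2 gave 0.0251 and Eif2b3 0.0141. Without GFP 3 and GFP-GR100 4, Eif2b3 gave 0.0323, Eif4e3 0.0076, Eif3k 0.0200, Eif1b 0.0648, Eef2 0.0098, Eif5a 0.0051, Eif1 0.0050 and Eif1ad 0.0520. With 1 library left out the ranges were -0.113 to 0.0883 for Eif5a2, -0.0249 to 0.0897 for Eif4g3, -0.0108 to 0.0967 for Eef1a1, -0.0913 to 0.0205 for Eif2b3, -0.0712 to 0.0735 for Eif2a, -0.127 to 0.0093 for Eef2, -0.103 to 0.0063 for Eif2s2, -0.0015 to 0.0638 for Eif2d and -0.127 to 0.0052 for Eif1ad. The log2 ratios that changed sign ran from -0.0052 to 0.0448 for Eif3j1 over Eif3j2, -0.0462 to 0.297 for Eif5a2 over Eif5a, -0.0631 to 0.0718 for Eif1ax over Eif1a, -0.0197 to 0.0714 for Eif1b over Eif1 and -0.105 to 0.0223 for Eif4g2 over Eif4g1.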
